A study of Mus musculus with 24 samples.

Results

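Alveolar epithelial type 2 cells (AEC2s) from mice with a global deletion of Krt8 (Krt8-/-) were compared after 1 day of 2D culture with freshly isolated cells (day 0). Krt8 encodes keratin 8, an intermediate filament protein of simple epithelia. The comparison holds 6 of the 24 libraries of the series, namely the Krt8-/- libraries of day 1 and day 0, with 3 in each group. They were chosen by genotype and day as labelled, and every gene with enough reads was examined. The remaining 18 libraries are Krt8-/- AECs on days 3 and 7 of culture and Krt8+/+ AECs on the same 4 days. The cells were plated on a stiff surface coated with laminin. The biological replicates are numbered 1 to 3, and each number goes with 1 date in the library titles. Each is taken here as 1 batch, which holds libraries of both genotypes and all days, so a day 1 library has a day 0 partner. No source used here says how many mice a library holds, and the labels call the cells alveolar epithelial cells without naming a sort.

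AEC2s are cuboidal cells that package surfactant lipids and proteins into lamellar bodies, and after injury they divide and can turn into the flat alveolar epithelial type 1 cells (AEC1s). When plated on a stiff surface they flatten, lose surfactant genes, and pass through a transitional state marked by keratins of simple epithelia, among them keratin 8. Keratins form filaments as pairs of a type I and a type II chain, and the usual partner of keratin 8 is keratin 18.

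The total count of the 6 libraries ranged from 10979481 to 17861440. Levels are given as CPM, the share of reads of each gene on a common scale, after TMM scaling, edgeR's correction for composition. The top 10 genes by count took 26.1% to 31.3% of the counts on day 0 and 7.11% to 14.0% on day 1, and the scaling factors were 0.764 to 0.779 and 1.02 to 1.20. Without these factors each log2 change would be higher by 0.485 on average. CPM is a share of reads and is not corrected for gene length, so levels of different genes are not compared, and a gene said to have the most reads of a list had the highest CPM, which also grows with its length. In bulk RNA, fewer cells of a type and less RNA per cell cannot be told apart. Of the epithelial defining genes on day 0, Sftpc was at 168664 to 220906 CPM. Markers of other cells were also present. Summed over the marker list, 14 ciliated and club cell genes stood at 15363, 15709, and 20955 CPM on day 0 (mostly Scgb1a1) and at 8834, 12074, and 8062 CPM on day 1, in replicates 1 to 3. The 15 tested fibroblast and pericyte genes summed to 933, 754, and 387 CPM and then to 283, 263, and 129 CPM, with 5 lower past the threshold and 0 higher. The largest part of that sum was the collagen gene Col3a1, which fell from 341, 216, and 129 CPM to 28.5, 16.2, and 5.68 CPM. The 20 macrophage genes stood at 157, 123, and 48.1 CPM and then at 529, 424, and 119 CPM, with 3 higher past the threshold and 0 lower. With the replicates paired, 13 of the 20 were higher. Chil3, the macrophage gene with the most reads, was at 44.3, 44.2, and 4.56 CPM and then at 137, 125.2, and 21.2 CPM (adjusted p = 0.336). Endothelial genes summed to at most 53.3 CPM with 2 of 9 lower (Kdr had a log2 change of -2.98), and the 4 neutrophil genes to at most 2.87 CPM. Of 11 lymphocyte genes 1 was higher and 1 lower (sum at most 268 CPM), and of 8 mesothelial genes 2 were each way (sum 145 to 514 CPM), with Msln higher by 2.34 and Gpm6a lower (log2 change -4.604). The part of these cells in the results below was not tested, except where their values are given beside a result.

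Krt8 itself (ENSMUSG00000049382, chromosome 15, 101996698 to 102004482, GRCm38) was counted in Krt8-/- AECs at 36.4, 31.1, and 21.2 CPM on day 0 and at 47.5, 28.5, and 38.6 CPM on day 1. The days overlapped, and the log2 change was 0.37 (standard error 0.22, adjusted p = 0.166 from edgeR). In Krt8+/+ AECs the levels were 485, 552, and 533 CPM and then 3160, 3394, and 3071 CPM. Every Krt8-/- library lay below every Krt8+/+ library, the order that the genotype labels call for. Without replicate 2 the difference between days passed the threshold (log2 change 0.67, adjusted p = 0.0465).

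Of the 18046 genes tested between day 1 and day 0 in Krt8-/- AECs, 9131 (50.6%) passed an adjusted p of 0.05 in edgeR's quasi-likelihood test. Of all genes tested, 4279 (23.7%) were higher and 4852 (26.9%) were lower on day 1. The median log2 change over all genes was -0.01. Changes past the threshold exceeded 2 on the log2 scale for 1353 higher and 1326 lower genes. The direction was the same in 3 of 3 replicates for 98.2% of the genes past the threshold and for 70.4% of all genes. Over all genes tested, the day 0 and day 1 libraries did not overlap for 10132 (56.15%). Replicate 2 on day 1 stood apart in both genotypes, with a larger loss of surfactant genes, and without it 3495 genes were higher and 3225 lower. The Krt8-/- libraries of replicate 2 also differed in genes of the sex chromosomes. Ddx3y, a gene of the Y chromosome, was at 0 CPM on day 0 and 0.130 CPM on day 1 in replicate 2, against 63.6 to 85.0 CPM in replicates 1 and 3. Xist, the RNA of the inactive X chromosome, was at 57.6 and 100.4 CPM there, against 0.389 to 11.3 CPM. In Krt8+/+ AECs Ddx3y was at most 0.441 CPM in replicates 1 and 2 and at 70.3 and 90.8 CPM in replicate 3. The part of sex in the results was not tested. The counts for each gene list are to be read against these shares.

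**Figure D1:**
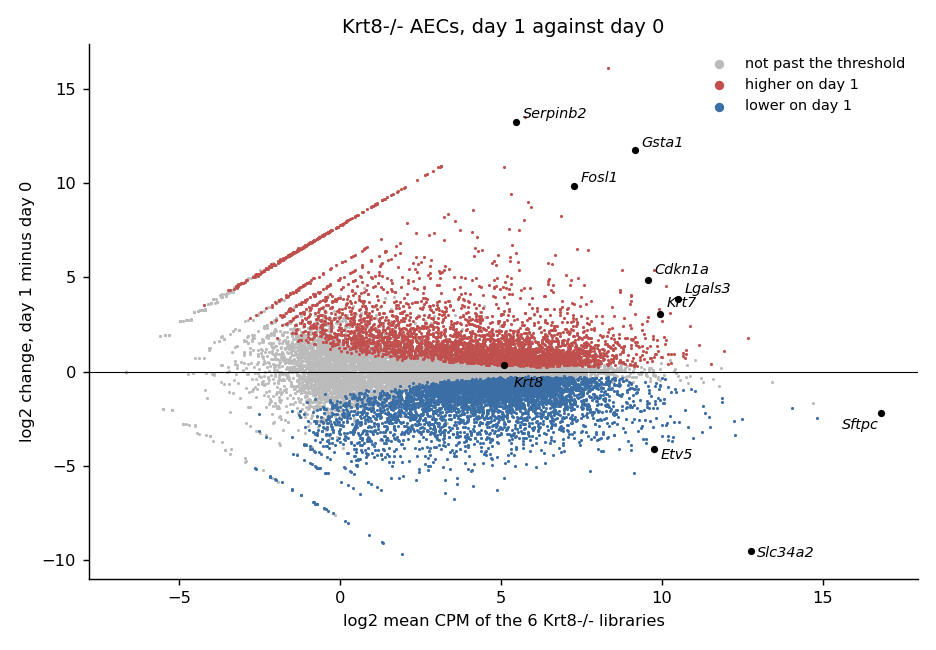
Log2 change from day 0 to day 1 in Krt8-/- AECs (vertical axis) against the log2 of the mean CPM of the 6 libraries (horizontal axis), 1 point per gene, with 4279 genes higher (red), 4852 lower (blue), and the rest grey. Slc34a2 lies at -9.53, Sftpc at -2.18 with the most reads of all, and Krt8 at 0.37. The straight diagonal bands are genes with no or few reads on 1 day, whose fitted change depends on the added prior count.

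The surfactant and lamellar body genes fell together. All 17 tested were lower past the threshold, with a median log2 change of -2.84. The list includes Muc1 and Aqp5, and Aqp5 is also counted among the further AEC1 genes below. Slc34a2, the sodium-phosphate cotransporter that takes phosphate up from the alveolar lining fluid, was at 15180, 14498, and 11760 CPM on day 0 and at 44.9, 2.59, and 9.03 CPM on day 1. It had the largest fall of the genes named by the rule (log2 change -9.53, standard error 1.10, adjusted p = 5.8e-07), and every day 1 library lay far below every day 0 library. The lamellar body lipid transporter gene Abca3 went from 2245, 2169, and 1465 CPM to 519, 89.7, and 212 CPM (log2 change -2.84, standard error 0.56, adjusted p = 0.00027). Sftpc, which encodes surfactant protein C, went from 171167, 168664, and 220906 CPM to 64348, 11437, and 48249 CPM. It lost more CPM than any other gene, but its log2 change was only -2.18 (standard error 0.58, adjusted p = 0.00395). The other surfactant proteins, Sftpa1, Sftpb, and Sftpd, had log2 changes of -2.46, -2.62, and -2.44 (Sftpa1 without replicate 3, adjusted p = 0.0609). The smallest fall of the group was that of Pi4k2a, a phosphatidylinositol kinase, from 80.0 to 57.2 CPM on average (log2 change -0.48), and it passed the threshold neither without replicate 1 (adjusted p = 0.0948) nor without replicate 2 (0.0608).

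These losses were uneven between replicates. In Krt8-/- AECs, the median share of the day 0 level left on day 1 over the 17 genes was 21.6% in replicate 1, 4.13% in replicate 2, and 14.5% in replicate 3. Replicate 2 had the lowest share for 16 of the 17. In Krt8+/+ AECs the shares were 24.5%, 4.12%, and 16.7%, and replicate 2 was lowest for 17 of 17. The batch that lost most was thus the same in both genotypes. Without replicate 2 the median log2 change of the list was -2.26, and 16 of 17 were lower.

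**Figure D2:**
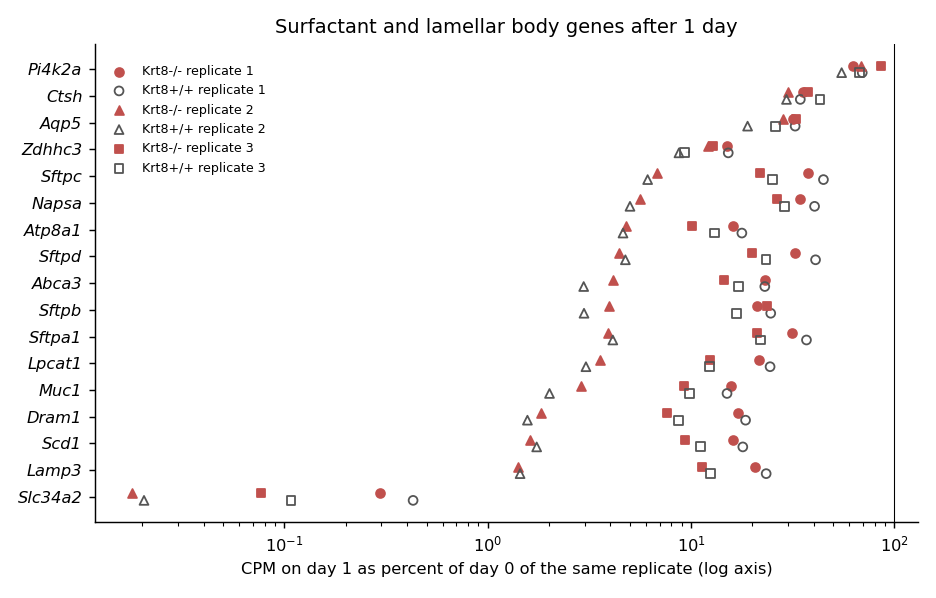
CPM on day 1 as a percentage of day 0 in the same replicate (horizontal axis, log scale) for 17 surfactant and lamellar body genes (rows), with filled symbols for Krt8-/- and open symbols for Krt8+/+ AECs and a shape for each replicate. The triangles of replicate 2 lie to the left for nearly every gene in both genotypes, at a median of 4.13% and 4.12%, and Slc34a2 lies below 1% throughout.

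Further AEC2 genes moved the same way. Of the 10 AEC2 markers that the study used, 9 were lower and 0 higher (median -2.34). The study scored its marker lists on these libraries, and how it chose the genes is not given in the sources used here, so such counts are not taken as independent evidence of a direction. The marker that missed the threshold was Lyz2, the lysozyme of AEC2s and macrophages, at 38750, 37193, and 46366 CPM and then 17421, 4031, and 16943 CPM (log2 change -1.67, adjusted p = 0.223), although its days did not overlap (adjusted p = 0.0396 when only these 6 libraries were compared). Its paralog Lyz1 fell (log2 change -1.92, adjusted p = 0.0086), and reads could be split between these near copies. The largest fall in this list was that of Fabp5, a fatty acid binding protein, from 1219, 1190, and 1353 CPM to 165, 56.5, and 94.3 CPM (log2 change -3.58). Among 12 AEC2 transcription factors and related genes, 8 were lower and 2 higher (median -1.44). Etv5, the ETS factor that maintains AEC2 identity downstream of FGF signals, fell from 1748, 1738, and 1454 CPM to 172, 24.6, and 87.2 CPM (log2 change -4.12, adjusted p = 1.5e-05). Nkx2-1, the master factor of lung epithelium, fell from 528, 522, and 591 CPM to 62.1, 92.3, and 88.2 CPM, and here replicate 2 was not the lowest (log2 change -2.76, adjusted p = 2.2e-09). Cebpa and Foxa2 fell (log2 changes of -2.63 and -1.95). The rises were those of Klf5 (log2 change 1.46) and of Sox9, a factor of lung epithelial progenitors (3.00). Of 12 host defence genes 9 were lower and 1 higher (median -1.87). Hc, which encodes complement C5, and the alarmin Il33 fell (log2 changes of -4.12 and -3.89), and the protease inhibitor Slpi rose by 1.53 (adjusted p = 0.0615 without replicate 2).

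Genes of AEC1s did not move as a block. Of 10 AEC1 markers of the study, 6 were higher and 3 lower (median 0.98), and of 16 further AEC1 genes 6 were higher and 7 lower (median -0.26, and -0.038 and -0.43 without replicates 1 and 3). Pdpn, which encodes the AEC1 membrane protein podoplanin, rose from 10.2, 5.06, and 5.25 CPM to 57.7, 77.3, and 38.7 CPM (log2 change 3.07, standard error 0.42, adjusted p = 5.4e-06). The receptor gene Ager, abundant in AEC1s, fell from 2010, 1849, and 2181 CPM to 555, 173, and 465 CPM (log2 change -2.34, adjusted p = 0.00013). Igfbp2, a marker of late AEC1s, fell (log2 change -3.395). Ier3 and Lmo7 rose by 3.09 and 1.74, and the basement membrane collagen gene Col4a4 fell (log2 change -2.696). Hopx was at 64.2 CPM on day 0 and 65.2 CPM on day 1 on average (adjusted p = 0.937).

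Transitional markers were higher on day 1 than on day 0 in Krt8-/- AECs. Of the 9 markers used by the study 8 were higher and 0 lower (median 3.02), and the exception was Krt8 itself. In Krt8+/+ AECs 9 were higher and 0 lower (median 3.06). Krt7 rose from 203, 228, and 208 CPM to 1413, 2096, and 1787 CPM (log2 change 3.05, standard error 0.25, adjusted p = 7.3e-09). The type I chain Krt19 rose from 188, 187, and 160 CPM to 1602, 1958, and 1709 CPM (log2 change 3.30, adjusted p = 8.1e-10). Sfn, a cell cycle regulator of the 14-3-3 family, rose from 17.7, 26.8, and 14.9 CPM to 766, 798, and 957 CPM (log2 change 5.41, adjusted p = 2.5e-10). Cldn4, a tight junction claudin, went from 0.864, 0.506, and 0.850 CPM, or 28 reads in all, to 159, 395, and 141 CPM (log2 change 8.24, adjusted p = 7e-09). Itgb6, the beta chain of the integrin that activates latent TGF-beta, rose by 3.02. Of the 14 basaloid genes in the marker table of the study 13 were tested, and 8 were higher and 0 lower (median 1.25), the one with the most reads being the tropomyosin gene Tpm1, which rose by 0.95.

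Krt18, the type I partner of keratin 8, rose from a higher day 0 level than in the Krt8+/+ cells. In Krt8-/- AECs Krt18 was at 437, 445, and 433 CPM on day 0 and 1464, 1370, and 1314 CPM on day 1 (log2 change 1.66, standard error 0.24, adjusted p = 8.7e-06). In the Krt8+/+ libraries Krt18 was at 244, 299.5, and 312 CPM and then at 1478, 1628, and 1365 CPM (log2 change 2.39). The difference between the changes in Krt18 was -0.73 (edgeR adjusted p = 1), so it did not pass the threshold over all genes. On day 1 the genotypes overlapped in Krt18, and on day 0 they did not.

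Among 10 tested type I keratins 5 were higher and 1 lower, and among 9 type II keratins 5 were higher and 0 lower. Krt76 and Krt6a, type II chains of stratified epithelia, had no read on day 0 in any of the 3 libraries. On day 1 Krt76 was at 1.34, 4.93, and 17.9 CPM and Krt6a at 1.26, 3.31, and 10.98 CPM, at least 99.7-fold and 64.0-fold higher if 3 counts in the group are taken as the floor. Krt17, a keratin of basal and injured epithelia, went from 6 reads in all to 10.8, 7.72, and 9.65 CPM (adjusted p = 0.00011). Krt80 rose by 3.33 on the log2 scale. Krt23 fell from 271, 267, and 308 CPM to 91.4, 77.4, and 106 CPM (log2 change -1.62). The basal cell chain Krt14 stood at 0.432, 0.304, and 0.154 CPM and then at 2.42, 2.27, and 1.95 CPM (adjusted p = 0.00807, and 0.0517 and 0.0702 without replicates 1 and 2). Krt5, its type II partner, did not pass the threshold (adjusted p = 0.061, and 0.0193 when only these 6 libraries were compared). Of 15 genes of desmosomes and keratin linkers, 10 were higher and 1 lower (median 0.71). The plakophilin gene Pkp1 and the desmosomal cadherin gene Dsc2 rose by 3.71 and 2.76 (Pkp1 without replicates 2 and 3, adjusted p = 0.0554 and 0.0536), Epha2 and Perp by 2.02 and 1.85, and Pkp4 fell (log2 change -1.37). Jup, plakoglobin, had the most reads of this list and rose by 0.71 (adjusted p = 0.0763 without replicate 1).

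**Figure D3:**
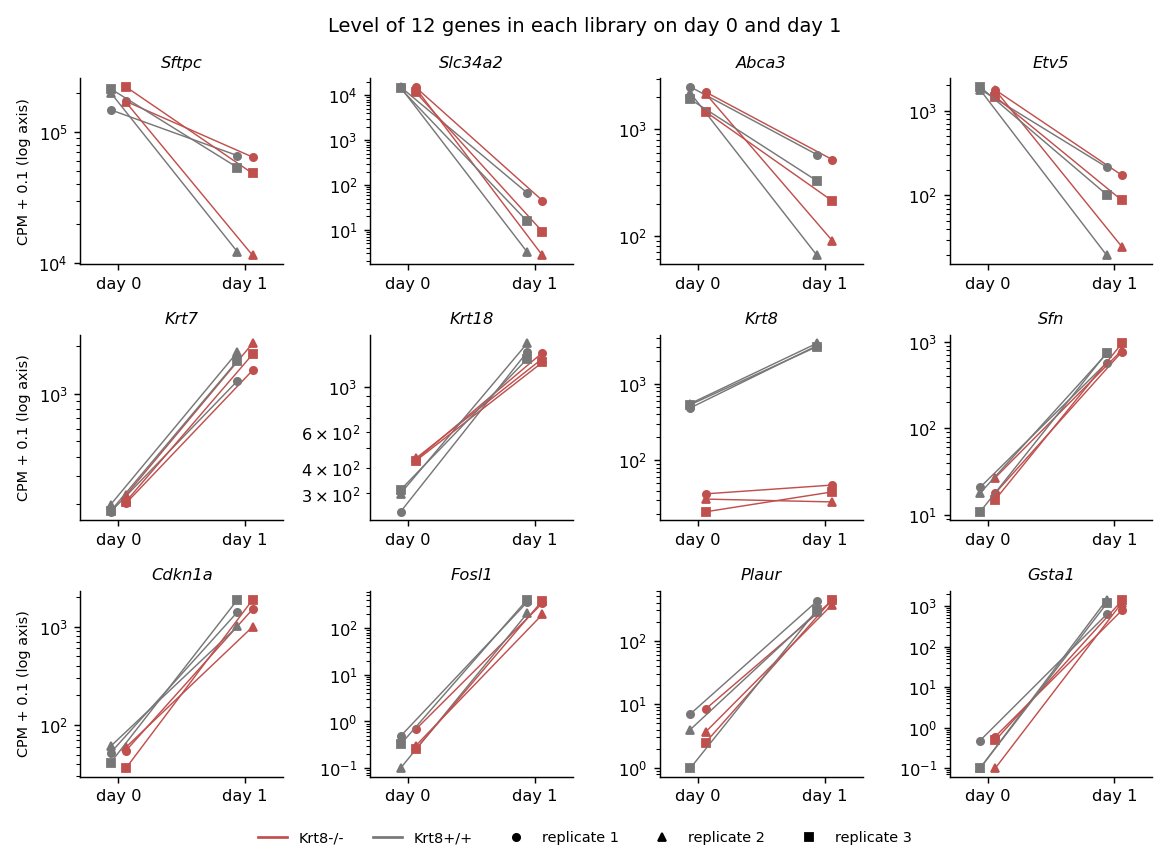
CPM plus 0.1 (vertical axes, log scale) on day 0 and day 1 of 12 genes, with 1 line per replicate, red for Krt8-/- and grey for Krt8+/+ AECs. In the panel of Krt8 the red lines stay between 21.2 and 47.5 CPM while the grey lines end at 3071 to 3394 CPM. In the Krt18 panel the red lines start higher.

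The genes with the largest rises were nearly silent on day 0. By the rule that asks for the same direction in each replicate and 10 CPM on the higher day, the largest included Il1rl1, Serpinb2, Gsta1, AC124518.1, Il1f9, Eid3, Tpsab1, Mmp13, Cwh43, Nrk, and Syt8. Of these, all except Gsta1 (12 reads) had no read in the 3 day 0 libraries. Il1rl1, the receptor for IL-33, reached 112, 150, and 62.1 CPM, at least 1354-fold higher against the floor, while Il33, its ligand, fell from 1004, 1053, and 872 CPM to 138, 9.34, and 50.1 CPM. The IL-36 family cytokine gene Il1f9 reached 12.7, 20.0, and 19.9 CPM (at least 219-fold higher). Eid3 reached 16.4, 7.72, and 27.2 CPM, the mast cell tryptase gene Tpsab1 24.1, 17.0, and 8.56 CPM, and the synaptotagmin gene Syt8 6.73, 14.1, and 10.5 CPM. For the other rises the bounds were 223-fold (AC124518.1), 167-fold (Cwh43), and 162-fold (Nrk). Later levels differed between these genes, with no test. Il1f9 was at 17.5 CPM on day 1, 2.14 on day 3, and 0.0213 on day 7, and Eid3 at 17.1, 0.702, and 0.495 CPM, whereas Nrk, a kinase gene, was at 12.5, 149, and 64.4 CPM.

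The largest falls by this rule included Slc34a2, Ntf3, Tril, Tnfaip8l3, Tmem121b, Slc10a6, Spaar, Hp, D6Ertd527e, Hes2, and Slco4c1, with log2 changes of -9.53 to -5.27. Hp, which encodes the hemoglobin-binding protein haptoglobin, had the most reads after Slc34a2, at 1104, 1024, and 1172 CPM and then 50.2, 11.02, and 18.5 CPM (log2 change -5.38, adjusted p = 1.9e-07). Slco4c1, an organic anion transporter, fell from 521, 420, and 328 CPM to 24.7, 1.88, and 7.01 CPM, and Slc10a6, a transporter of steroid sulfates, from 86.5, 62.1, and 52.6 CPM to 2.06, 0.713, and 1.25 CPM. The neurotrophin gene Ntf3 went from 24.04, 22.7, and 21.6 CPM to 0.179, 0.324, and 0.0779 CPM. Tril, a TLR4 accessory gene, and Tnfaip8l3 fell (log2 changes of -6.06 and -5.96). In each of these genes every day 1 library lay below every day 0 library. They were chosen for large falls in each replicate, and the days did not overlap in 56.15% of all genes tested.

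By absolute gain of CPM the leading genes were Ftl1, Fth1, Sqstm1, Lgals3, Prdx1, and Esd. The ferritin light chain gene Ftl1 rose from 2826, 2502, and 3372 CPM to 8852, 9506, and 11984 CPM, and the heavy chain gene Fth1 from 2424, 2413, and 2656 CPM to 4717, 5711, and 5620 CPM. Sqstm1, the autophagy receptor p62, rose from 587, 590, and 614 CPM to 3898, 2658, and 2952 CPM (log2 change 2.41), and Lgals3, galectin 3, from 184, 182, and 198 CPM to 2171, 2794, and 3159 CPM (3.85). Esd, an esterase, rose from 82.3, 80.0, and 107 CPM to 1607, 2328, and 2450 CPM (4.57). The largest losses of CPM were those of Sftpc, Sftpa1, Lyz2, Lyz1, Slc34a2, and Scd1.

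Genes of the oxidative stress response, listed as NRF2 and antioxidant genes, rose in large part. The list was not limited to targets of NRF2. Of 24 tested 17 were higher and 4 lower (median 2.04). Gsta1, a glutathione transferase, went from 0.504, 0, and 0.386 CPM to 797, 1233, and 1389 CPM (log2 change 11.74, standard error 0.59, adjusted p = 9.9e-12) and then to 142 CPM on day 3 and 10.2 CPM on day 7. Its neighbours on chromosome 9 rose with it. Gm3776, which the rule leaves out for its name and which was added after its values were seen, had no read on day 0 and 446, 699, and 769 CPM on day 1, at least 7957-fold higher, and Gsta2 rose by 6.17. Such near copies can share reads, and the counting could have split them. The cystine importer gene Slc7a11 rose from 3.31, 4.15, and 3.25 CPM to 332, 268, and 367 CPM (log2 change 6.50, adjusted p = 2.3e-13). Srxn1 (sulfiredoxin) rose by 4.31, Nqo1 (a quinone reductase) by 4.65, Gclm (a subunit of the enzyme that starts glutathione synthesis) by 3.73, Txnrd1 (thioredoxin reductase) by 3.11, and Hmox1 (heme oxygenase) by 2.97. The 4 lower genes were Cat (catalase), Nfe2l2 itself, Sod2, and Tkt, with log2 changes of -1.48, -0.70, -0.67, and -0.64.

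Promoter windows of RefSeq (GRCm38.p6, 250 bases before to 50 after the start of the gene) were found for 20 of these 24 genes. The core of the antioxidant response element, TGACNNNGC on either strand, occurred in 8 of the 20 (40.0%), and in 16.9% of the 11695 tested genes with a window. It was in the windows of Srxn1, Gclm, Prdx1, Mt2, and Txnrd1, which rose. It was also in those of Me1 (log2 change 0.36, adjusted p = 0.0219, and 0.105 and 0.134 without replicates 1 and 3), of Nfe2l2, which fell, and of G6pdx (log2 change -0.07, adjusted p = 0.665). The motif was chosen with these results known, and a match is not a binding site. To show how the matches lie, the stretches around it in the first 5 genes are printed 5′ to 3′ on the strand of the gene, with the match in capitals.
Srxn1 (chr2:152105526-152105573, plus strand): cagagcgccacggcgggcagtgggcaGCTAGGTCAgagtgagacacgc
Gclm (chr3:122245397-122245457, plus strand): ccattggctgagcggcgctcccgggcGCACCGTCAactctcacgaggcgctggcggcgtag
Txnrd1 (chr10:82859088-82859148, plus strand): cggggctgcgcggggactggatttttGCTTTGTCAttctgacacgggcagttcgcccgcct
Prdx1 (chr4:116685440-116685500, plus strand): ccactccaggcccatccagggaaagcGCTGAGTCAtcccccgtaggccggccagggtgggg
Mt2 (chr8:94172513-94172573, plus strand): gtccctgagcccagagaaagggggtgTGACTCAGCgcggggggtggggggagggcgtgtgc
In Prdx1 and Mt2 the match also spells the AP-1 motif TGANTCA.

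Of 18 tested genes of proteases and the plasminogen system 13 were higher and 1 lower. The fitted median was 3.54, which depends on the prior count for members with no read on day 0, and the medians in replicates 1 to 3 were 2.691, 2.947, and 2.651. Plaur, the receptor that holds urokinase at the cell surface, rose from 8.28, 3.54, and 2.40 CPM to 431, 372, and 445 CPM (log2 change 6.43, standard error 0.47, adjusted p = 1.7e-09). Urokinase itself, Plau, had no read on day 0 and was at 1.52, 3.76, and 1.40 CPM on day 1. Serpinb2, an inhibitor of plasminogen activators, went from no read to 137, 92.0, and 36.4 CPM, at least 1061-fold higher. Of the matrix metalloproteinases, Mmp13 (collagenase 3) and Mmp10 (stromelysin 2) had no read on day 0 and were at 26.6, 8.56, and 9.34 CPM and at 13.4, 6.81, and 3.27 CPM on day 1, while Mmp3 (stromelysin 1) rose from 2.02, 1.62, and 0.232 CPM to 110, 92.7, and 27.7 CPM. The inhibitor Timp1 rose by 5.88. Adam17 was the gene that fell (-0.87). Replicate 3 was lowest on day 1 for Serpinb2, Plau, Mmp3, and Mmp10, but not for Plaur or Mmp13. It was also lowest for the macrophage sum (529, 424, and 119 CPM) and the fibroblast sum (283, 263, and 129 CPM). The part of these cells in the rises was not tested.

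The AP-1 motif TGANTCA, which is its own reverse complement, was found in the RefSeq window of 5 of the 12 genes of this list that have one (41.7%), in 6.79% of all tested genes with a window, in 15.2% of the 812 that were higher by over 2 on the log2 scale, and in 8.01% of the 936 that were lower by as much. It was also in 25.0% of the 20 NRF2 and antioxidant genes with a window. The 5 genes all rose, as did 13 of the 18 tested in this list, and Mmp13, Mmp3, and Mmp10 lie close together on chromosome 9. The list was chosen with earlier results of these data known, and a match is not a binding site. The stretches around the match are shown in the same way.
Serpinb2 (chr1:107511303-107511361, plus strand): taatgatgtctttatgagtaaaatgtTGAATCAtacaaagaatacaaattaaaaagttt
Plaur (chr7:24462388-24462446, plus strand): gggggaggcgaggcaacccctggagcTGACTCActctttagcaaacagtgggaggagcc
Mmp13 (chr9:7272453-7272511, plus strand): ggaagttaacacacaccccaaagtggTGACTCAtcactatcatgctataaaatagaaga
Mmp3 (chr9:7445750-7445808, plus strand): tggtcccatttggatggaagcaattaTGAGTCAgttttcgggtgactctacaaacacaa
Mmp10 (chr9:7502253-7502311, plus strand): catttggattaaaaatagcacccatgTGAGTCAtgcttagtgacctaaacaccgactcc
The matches begin 94, 69, 35, 46, and 63 bases before the start of the gene, in this order.

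AP-1 and immediate early genes split by family member. Of 29, 15 were higher and 4 lower (median 0.88, and 1.427 without replicate 1). Fosl1, the FRA-1 subunit of AP-1, rose from 0.576, 0.203, and 0.154 CPM to 341, 196, and 388 CPM (log2 change 9.85, standard error 0.67, adjusted p = 6.4e-10). Fos fell from 811, 254, and 105 CPM to 109, 41.2, and 65.0 CPM (log2 change -2.45, adjusted p = 0.00203). Its day 0 levels differed widely, and the days overlapped because the day 0 level of replicate 3 lay below the day 1 level of replicate 1. The other 3 that fell were Zfp36, Btg2, and Ier2. Jun did not pass the threshold (adjusted p = 0.24). Myc rose from 12.02, 10.9, and 10.7 CPM to 335, 238, and 246 CPM (log2 change 4.601, standard error 0.20, adjusted p = 1.2e-12). Atf3, Klf6, and Arc rose by 3.64, 2.44, and 5.82, with Arc at 156, 13.9, and 103 CPM on day 1.

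Ribosome biogenesis genes rose almost without exception, with 25 of 27 higher and 2 lower (median 1.94). The list includes Myc. Ncl (nucleolin) rose from 249, 262, and 252 CPM to 845, 741, and 842 CPM and Nop58, of the small nucleolar RNA-protein complexes, from 37.6, 40.7, and 41.9 CPM to 245, 228, and 276 CPM (log2 changes 1.67 and 2.64). The lower genes were Heatr1 and Ubtf, with log2 changes of -0.84 and -0.27. Ubtf passed under no alternative (adjusted p 0.0588 to 0.478), and Heatr1 not without replicate 1 (0.0509) or replicate 2 (0.0973). Of 33 genes of the cell cycle 8 were higher and 7 lower (median 0.13, and 0.248 to 0.275 without each replicate in turn), near the background. The G1 cyclin gene Ccne1 rose by 1.84 and the mitotic checkpoint gene Bub1 fell (log2 change -3.32). The gene with the most reads was Ccnd1, cyclin D1, which fell from 391, 419.5, and 381 CPM to 243, 333, and 211 CPM (adjusted p = 0.0706 and 0.0825 without replicates 1 and 3). Without replicate 1, 4 cell cycle genes were higher and 4 lower.

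Targets of p53, the transcription factor that responds to DNA damage and other stress, were higher in 21 of 26 cases and lower in 3 (median 2.19). Cdkn1a, the cell cycle inhibitor p21, rose from 54.8, 59.3, and 36.3 CPM to 1508, 999, and 1886 CPM (log2 change 4.87, standard error 0.27, adjusted p = 4.5e-11). Pmaip1, the pro-death BCL2 family gene Noxa, rose by 5.37, Gdf15 by 4.45, Mdm2, the ubiquitin ligase of p53, by 2.19, and Trp53 itself by 2.10. The 3 lower targets were Sesn1, Rrm2b, and the DNA repair gene Ddb2, with log2 changes of -1.43, -1.38, and -1.30. Of 7 tested CDK inhibitors 2 were higher and 4 lower, with Cdkn2b (p15) rising by 2.27 and Cdkn1b (p27) falling (log2 change -1.57). The lower CDK inhibitors were 2 without replicate 1 and 2 without replicate 2. Among 16 BCL2 family genes 5 were higher and 3 lower, and Bmf, a pro-death member released upon loss of anchorage, fell from 47.4, 49.6, and 56.0 CPM to 1.17, 1.04, and 3.97 CPM (log2 change -4.63, adjusted p = 9.9e-08), while Mcl1, with the most reads, did not pass the threshold (adjusted p = 0.714).

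Actomyosin genes were mostly higher, and genes of contact with the matrix moved both ways. Of 31 actomyosin and focal adhesion genes 23 were higher and 0 lower (median 1.25). Pdlim7 had the largest rise, from 6.19, 5.97, and 1.85 CPM to 71.8, 119, and 86.7 CPM (log2 change 4.32). Flna (filamin A), Myh9 (a nonmuscle myosin), and Vim (vimentin) rose by 1.79, 1.25, and 2.72, Actg1, with the most reads, by 0.40 (adjusted p = 0.107, 0.0662, and 0.149 without replicates 1, 2, and 3), while the fibroblast genes summed to less on day 1 in each replicate, as given above. Of 25 integrins and laminins 12 were higher and 6 lower (fitted median 0.91). With members that had no read on 1 day set at their bounds, the median was 0.736. In replicates 1 to 3 it was 0.714, 0.579, and 0.735. Itga2, a collagen receptor chain, rose from 0.576, 0, and 0 CPM to 91.6, 188, and 63.8 CPM (log2 change 8.99, adjusted p = 2.7e-08), and Itgb4, Itga5, and Fn1 rose by 2.85, 2.64, and 2.39. The collagen receptor chain Itga1 fell (log2 change -2.53, adjusted p = 0.0761 without replicate 2), and the basement membrane genes Lamb2 and Col4a2 fell (log2 changes of -1.96 and -1.27). Without replicate 2 the lower genes of this list were 3. Itgb1, the common beta chain, with the most reads, was at 622, 662, and 514 CPM and then at 776, 672, and 653 CPM (adjusted p = 0.237). Of 20 genes of tight junctions and cadherins 9 were higher and 3 lower (median 0.48). Cldn18, the claudin of alveolar cells, fell from 1158, 1087, and 1105 CPM to 412, 348, and 360 CPM (log2 change -1.58), opposite to Cldn4. Cdh16, a kidney and lung cadherin, fell (log2 change -2.49). Cdh2 (N-cadherin) had no read on day 0 and 1.75 to 1.97 CPM on day 1. Cdh1 (E-cadherin) was at 927 to 1150 CPM and then at 716 to 985 CPM, and its days overlapped (adjusted p = 0.189).

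Of 18 genes of YAP and TAZ, the coactivators that respond to stiffness, with their partners and targets, 13 were higher and 3 lower (median 0.88). The clotting initiator F3 rose from 41.2, 45.7, and 32.7 CPM to 1866, 1666, and 1539 CPM (log2 change 5.41, standard error 0.28, adjusted p = 1.6e-11), Ccn1 from 105, 43.2, and 27.4 CPM to 1280, 984, and 741 CPM, and Ccn2 by 3.32. The partner transcription factor gene Tead2 rose by 1.61, and Arhgef17 fell (log2 change -0.96). Of 20 genes of TGF-beta activation and targets 11 were higher and 2 lower (median 1.24). Thbs1, an activator of latent TGF-beta, rose from 282, 227, and 93.3 CPM to 1785, 1206, and 830 CPM (log2 change 2.67), and Ltbp3 fell (log2 change -2.04).

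Among 35 cytokines and growth factors 19 were higher and 5 lower (fitted median 2.62). The medians in replicates 1 to 3 were lower, at 1.942, 1.954, and 2.295. Inhba, the activin A chain, rose from 0.216, 0.203, and 0.695 CPM to 116, 148, and 50.4 CPM (log2 change 8.07, standard error 0.51, adjusted p = 2.3e-10). The IL-6 family genes Il11 and Lif rose from 18 and 29 reads in all to 66.0, 166, and 50.1 CPM and to 59.0, 74.8, and 41.6 CPM. The EGF receptor ligands Ereg and Hbegf rose by 6.11 and 3.47, and Csf1, the macrophage growth factor, by 2.62. The 5 lower genes were Il33, Il34, Csf2, Bmp4, and Tgfb3, with log2 changes of -3.89, -3.22, -2.08, -2.08, and -0.91 (Tgfb3 without replicates 1 and 2, adjusted p = 0.118 and 0.0542). Il1b, which macrophages also make, was at 7.98, 1.56, and 0 CPM on day 1 (adjusted p = 0.0862, and 0.0402 without replicate 3).

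Of 26 tested chemokines 10 were higher and 2 lower (median 1.08). Ccl2, the main attractant of monocytes, went from 3 reads in all on day 0 to 35.3, 41.8, and 26.9 CPM, a ratio of 430 with a counting interval of 147 to 2086, and its neighbour Ccl7 from 2 reads to 15.7, 25.9, and 14.7 CPM. In Krt8+/+ AECs Ccl2 reached 78.8, 73.8, and 53.7 CPM and Ccl7 37.5, 46.1, and 26.6 CPM, above each Krt8-/- library. The difference between the changes did not pass the threshold (edgeR adjusted p = 1 for both). The macrophage marker sum given above was also higher on day 1, with its lowest value on day 1 in replicate 3, where Ccl2 was lowest. Ccl6 and Ccl9, which macrophages make, were at 25.3 and 0.311 CPM in that library against 108 to 211 and 18.6 to 21.1 CPM in the other two, and neither passed the threshold (adjusted p = 0.116 and 0.0543, and 0.017 and 0.00746 without replicate 3). Cxcl15, the lung chemokine of AEC2s, fell from 4740, 4761, and 5756 CPM to 1234, 123, and 653 CPM (log2 change -2.92). Without replicate 1 only 4 chemokines were higher, and without replicate 2 only 5. NF-kB genes were higher in 10 of 18 cases and lower in 5 (median 0.76), with the feedback gene Tnip3 rising by 4.43 and Traf1 falling (log2 change -2.43). Rela, the p65 subunit, rose by 0.84. Of the other subunit genes, Nfkb2 and Relb lay on the rising side by fitted change, and Nfkb1 and Rel on the falling side. Without replicate 2 the lower NF-kB genes were 3.

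Of 28 genes of the unfolded protein and integrated stress responses 15 were higher and 6 lower (median 0.83). Without replicate 3 the median was 0.417, with 12 higher, and in replicate 2 by itself it was -0.076. The higher genes included the ATF4 targets of amino acid supply, Phgdh and Psat1 of serine synthesis and Asns of asparagine synthesis, which rose by 5.13, 4.34, and 3.98. Phgdh was at 6.12, 8.30, and 7.11 CPM and then at 257, 177, and 319 CPM. Ppp1r15a, the phosphatase subunit GADD34, rose by 4.03, from at most 84.4 CPM to 1532, 217, and 1217 CPM, again with replicate 2 lowest. Xbp1, the factor of the endoplasmic reticulum branch, fell from 283, 367, and 380 CPM to 129, 123, and 134 CPM (log2 change -1.41, adjusted p = 9.6e-09), as did Herpud1, Dnajc3, and Pdia6 (-1.17, -0.96, and -0.65). Hspa5, the chaperone BiP, had the most reads of this list, at 1008, 1304, and 966 CPM and then at 3195, 1213, and 2715 CPM, and its days overlapped (log2 change 1.12, adjusted p = 0.00141, and 0.0595 and 0.0766 without replicates 1 and 3). Of 23 heat shock chaperones 14 were higher and 2 lower (median 1.01, and 0.636 without replicate 3). The small chaperones Hspb8 and Cryab rose by 2.10 and 2.09 and the chaperonin subunit Cct8 by 1.75, Hsp90ab1 rose by 0.85, and Dnajb4 fell (log2 change -0.50, adjusted p = 0.2 without replicate 2). Hspa1a did not pass the threshold, with day 0 levels from 8.34 to 136 CPM.

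Genes of lipid synthesis were mostly lower. Of 24 genes of fatty acid and phospholipid synthesis 20 were lower and 2 higher (median -2.43). Gpam, the first acyltransferase of glycerolipid synthesis, fell from 574, 522, and 383 CPM to 36.6, 20.2, and 27.5 CPM (log2 change -4.13, standard error 0.32, adjusted p = 3.1e-09). Fasn, fatty acid synthase, fell from 2441, 2346, and 1230 CPM to 475, 195, and 233 CPM, and Scd1, the desaturase, from 11738, 8475, and 6930 CPM to 1877, 137, and 648 CPM. Elovl6, a fatty acid elongase, rose by 2.56. Of 22 genes of sterol synthesis 15 were lower and 0 higher (median -1.21, and -0.715 without replicate 2), with the largest fall in Dhcr7 (-2.48), and Idi1, with the most reads, fell (log2 change -1.14). Of 25 genes of fatty acid oxidation and peroxisomes 18 were lower and 1 higher (median -1.17), with Acoxl falling (log2 change -4.24) and Pdk4 rising by 2.58. Glycolysis and hypoxia genes moved both ways, with 13 of 28 higher and 7 lower (median 0.29, and 0.554 without replicate 2). Eno1, Pgk1, Pkm, and Gapdh rose by 2.48, 1.58, 1.47, and 1.33, Adm and Ndrg1 by 6.74 and 4.87, and Pdk1, P4ha1, and Bnip3 fell (log2 changes of -2.17, -1.84, and -1.72). Of 27 respiratory chain subunits 10 were lower and 4 higher (median -0.18, and -0.092 without replicate 1), and without replicate 3 these were 4 and 1. Cycs (cytochrome c) and Atp5b rose by 0.98 and 0.40 (Atp5b without replicate 3, adjusted p = 0.0535), and Cox8a fell (log2 change -0.93). Of 26 lysosomal genes 12 were lower and 8 higher (median -0.33, and -0.188 without replicate 2), with Npc2 falling (log2 change -2.04) and Lipa and Ctsd rising by 2.62 and 1.82. Lipa was at 12.6, 6.99, and 2.16 CPM and then at 73.2, 50.8, and 10.7 CPM, in the order of the macrophage sum, and passed no threshold without replicate 2 (adjusted p = 0.14).

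Of 18 genes of ion and fluid transport 14 were lower and 1 higher (median -2.07). The chloride channel Cftr, the sodium channel subunit Scnn1b, and the sodium pump subunit Atp1b1 fell (log2 changes of -2.58, -2.49, and -1.66), and the chloride channel Ano1 rose by 1.54. Of 24 genes of xenobiotic metabolism 14 were lower and 5 higher (median -1.55). Cyp2f2, which club cells also express, fell from 2152 to 173 CPM on average (-3.63). The targets of the aryl hydrocarbon receptor Cyp1b1 and Cyp1a1 rose, Cyp1b1 from 2.81, 4.96, and 9.35 CPM to 128, 243, and 156 CPM (log2 change 4.94, adjusted p = 8e-08) and Cyp1a1 from no read to 1.52, 8.04, and 11.2 CPM. Among 9 tested MHC class II genes 8 were lower and 0 higher (median -2.24). Their regulator Ciita fell from 32.0, 22.5, and 26.3 CPM to 6.55, 0.195, and 0.934 CPM (log2 change -3.43, adjusted p = 0.00362) and the invariant chain Cd74 by 1.62. Of 15 MHC class I genes 9 were lower and 0 higher (median -0.61). The immunoproteasome gene Psmb9 fell (log2 change -2.55) and H2-D1 fell (log2 change -0.91). Interferon response genes were near the background, with 7 of 27 higher and 8 lower (median -0.43, and -0.281 without replicate 2). Iigp1 fell (log2 change -3.71, adjusted p = 0.0828 and 0.0725 without replicates 1 and 3) and Mx1 rose by 3.50. Cxcl10, an interferon-induced chemokine, went from 2 reads in all to 6.01, 0.584, and 0.623 CPM, and Irf1, with the most reads, fell (log2 change -0.60). Without replicate 1, 4 were higher and 3 lower, and without replicate 2, 4 and 4.

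Genes of growth factor, Wnt, and Notch signalling moved both ways. Of 20 growth factor receptors and feedback genes 10 were lower and 5 higher (median -0.72). Fgfr2, the receptor of the FGFs that maintain AEC2s, fell from 1035, 914, and 784 CPM to 114, 45.1, and 55.8 CPM (log2 change -3.67, standard error 0.35, adjusted p = 5.5e-08). The feedback genes Spry1 and Spry2 also fell (log2 changes of -3.64 and -2.71). Egfr, Igf1r, and Fgfr1 rose by 1.29, 1.58, and 2.11. Etv4, an ETS factor like Etv5, rose by 2.55, opposite to Etv5. Whether FGF signalling itself changed was not tested. Of 27 Wnt and Notch genes 11 were lower and 5 higher (median -0.35, and -0.58 to -0.542 without each replicate in turn). The Wnt targets Notum, Axin2, and Nkd1 fell (log2 changes of -4.84, -3.08, and -2.43). Wnt3a went from 89 reads in all on day 0 to no read on day 1, at least 31.9-fold lower, while Wnt7a rose from 0.792, 1.01, and 1.47 CPM to 67.3, 111, and 81.0 CPM (log2 change 6.30) and Wnt7b by 2.03. Wnt10a had no read on day 0 and was at 0.269, 1.36, and 1.17 CPM on day 1. Of 19 clock genes 8 were lower and 3 higher (median -0.79, and -0.33 with 6 lower without replicate 2), with Dbp falling from 143, 172, and 147 CPM to 13.5, 3.70, and 6.23 CPM (-4.31) and Cry1 rising by 1.73, while Bhlhe40, with the most reads, did not pass the threshold (adjusted p = 0.176). Of 15 glucocorticoid responsive genes 5 were higher and 5 lower, with Sgk1 rising by 4.59 and Tsc22d3 and Lcn2 falling (log2 changes of -1.6 and -2.32), and Errfi1, with the most reads, not past the threshold (adjusted p = 0.787).

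**Figure D4:**
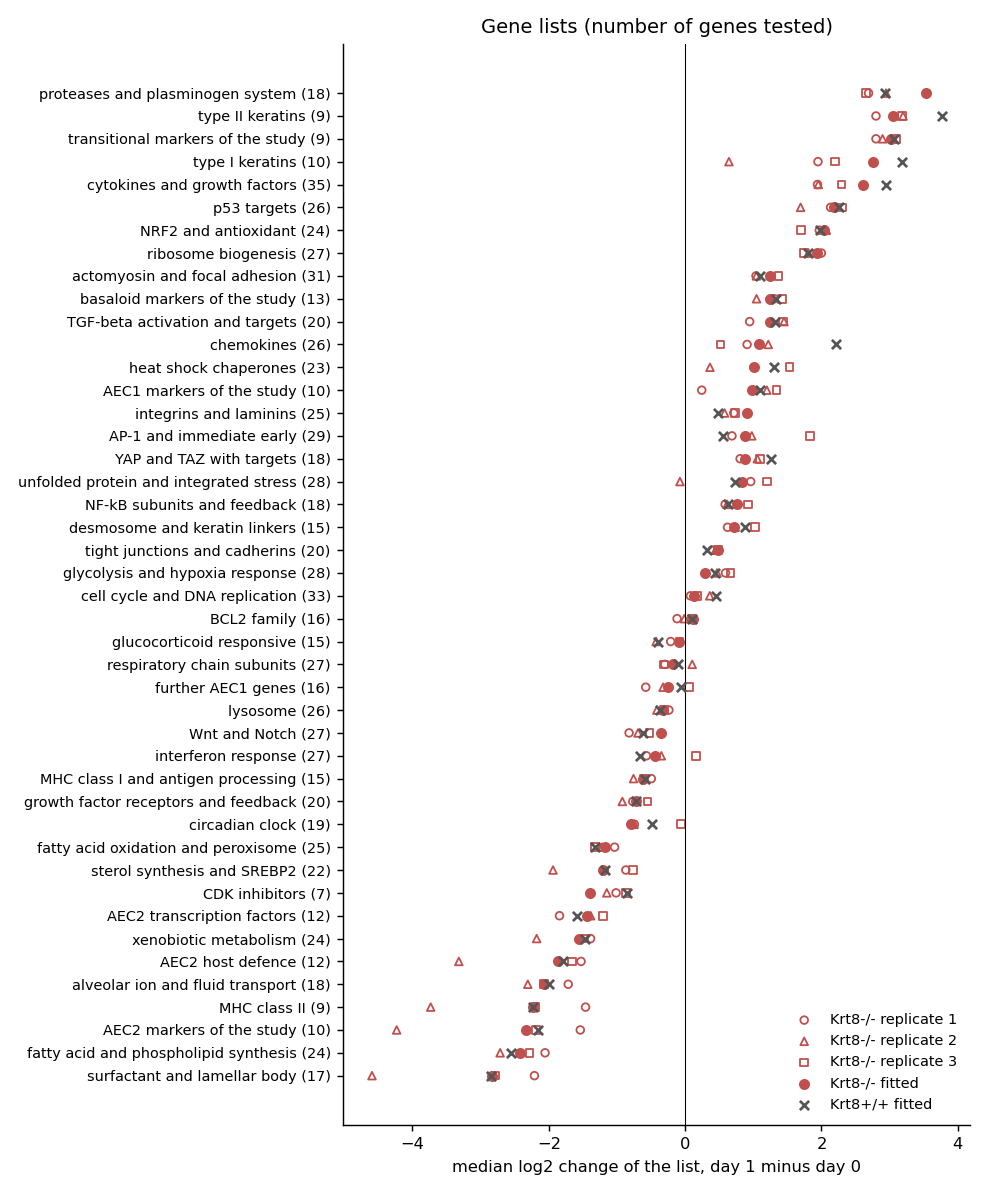
Median log2 change from day 0 to day 1 (horizontal axis) of 44 gene lists (rows, with the number of genes tested), as fitted in Krt8-/- AECs (filled circles) and in Krt8+/+ AECs (crosses), with the median in each Krt8-/- replicate as open symbols. Fitted medians run from -2.84 for surfactant and lamellar body genes to 3.54 for proteases, and replicate 2 lies far to the left for surfactant, AEC2, and MHC class II genes.

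Of the senescence list 48 of 118 tested genes were higher and 31 lower (median 0.19, and 0.367 without replicate 2), of the TGFβ list 143 of 283 were higher and 54 lower (0.48), and of the proteostasis list 53 of 124 were higher and 25 lower (0.37). Of the DNA damage list 23 of 84 were higher and 10 lower (0.19), and of the cell death list 20 of 74 were higher and 27 lower (-0.05, and 0.082 and -0.152 without replicates 2 and 3). These lists are those for which the study computed scores. Lower calls fell without replicate 2 to 33 in the TGFβ list, 13 in the cell death list, and 14 in the proteostasis list. The largest falls were those of Serpina10, Gdf5, Prkdc, Galnt5 (without replicate 2, adjusted p = 0.0543), and Cryaa (without replicates 1 and 2, adjusted p = 0.0691 and 0.231), and the largest rises beyond genes named above those of Tnf and Atg9b. Prkdc, a DNA repair kinase, fell (log2 change -1.79), and Atg9b, an autophagy gene, went from 1 read to 5.74, 8.88, and 10.7 CPM. Serpina10 went from 6.19, 4.86, and 3.55 CPM to no read on day 1, at least 64.4-fold lower.

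To ask whether the response differed with Krt8 present, the change in Krt8-/- AECs was compared with the change in Krt8+/+ AECs in the same model (difference of the log2 changes, Krt8-/- minus Krt8+/+). Of 18046 genes 1 (0.00554%) passed the threshold, and that gene was Krt8 (difference -2.25, adjusted p = 0.00719). An unadjusted p under 0.05 was reached by 486 genes. The median standard error of the difference, derived from the test statistic, was 0.43, which limits the differences that 3 replicates can show. The fitted difference was under 1 on the log2 scale in size for 89.0% of genes. No fit paired the genotypes within a batch, so any shared batch effect on the change remained in this error. Leaving out any of the replicates ended the call of Krt8 (adjusted p = 1, 1, and 0.275 without replicates 1, 2, and 3), although the difference stayed between -2.495 and -2.024.

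The next smallest p values, none past the threshold, were those of Chtf18, Krt8-ps, Ankrd1, and Gm4654. Krt8-ps is a pseudogene of Krt8 and can share its reads, and it went from 1.29, 0.911, and 1.00 CPM to 2.06, 1.10, and 1.95 CPM in Krt8-/- AECs and from 14.7, 19.9, and 18.1 CPM to 120, 147, and 156 CPM in Krt8+/+ AECs. Chtf18, a factor that loads the replication clamp, was at 1.66, 2.02, and 1.39 CPM on day 0 in Krt8-/- AECs against 0.127, 0.217, and 0.332 CPM in Krt8+/+ AECs. On day 1 it was at 4.75, 5.19, and 3.19 CPM against 4.26, 3.26, and 4.07 CPM (difference -2.77, edgeR adjusted p = 0.478). Ankrd1, a muscle and YAP target gene, rose in Krt8-/- AECs from 2.52, 0.911, and 1.62 CPM to 13.8, 17.6, and 17.5 CPM (log2 change 3.23, adjusted p = 3.6e-07) and in Krt8+/+ AECs from 0.890, 0, and 0.221 CPM to 17.2, 24.7, and 33.1 CPM (difference -2.53, edgeR adjusted p = 1). In Chtf18 and Ankrd1 the day 0 level was higher in Krt8-/- AECs. These genes were picked by the difference of the changes, which holds the day 0 levels, so this order is not independent of the choice. Gm4654, a processed pseudogene outside the rule's name filter, had a difference of -1.998 (edgeR adjusted p = 1).

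Across the 18046 genes the fitted log2 changes in both genotypes had a Pearson correlation of 0.89, given as a description, since genes are not independent replicates. The 2 comparisons share no library but share batches. Between single replicates the correlation was 0.78 to 0.80 within Krt8-/- AECs and 0.81 to 0.87 between genotypes in the same batch. Of the 9131 genes past the threshold in Krt8-/- AECs 9087 (99.5%) had the same direction in Krt8+/+ AECs, and 8065 were past the threshold in both, which is 88.3% of the Krt8-/- calls and 81.7% of the 9874 Krt8+/+ calls. None was past it in opposite directions. The Krt8-/- calls were picked for their change, in batches that both genotypes share. The share of all genes tested with the same direction in both genotypes was not computed.

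**Figure D5:**
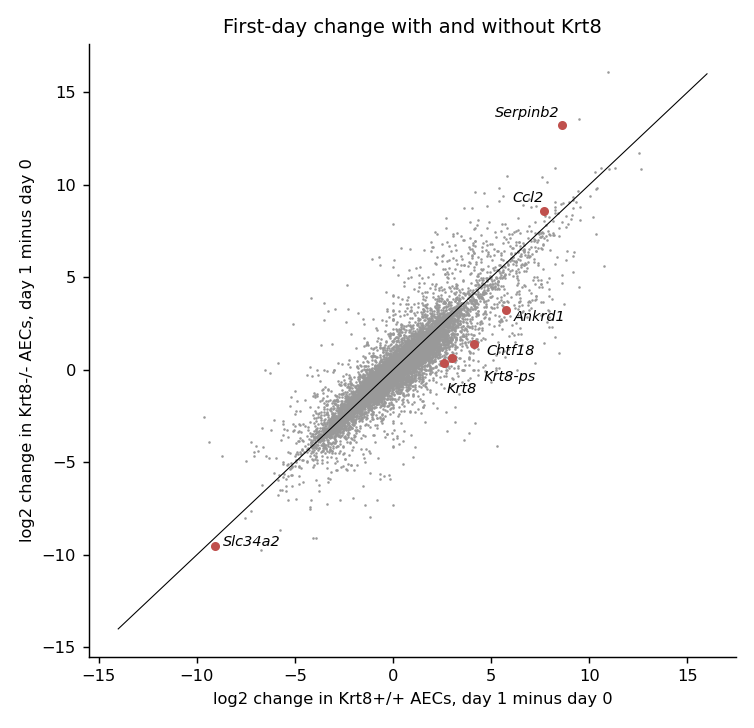
Fitted log2 change from day 0 to day 1 in Krt8-/- AECs (vertical axis) against Krt8+/+ AECs (horizontal axis) for 18046 genes, with the line of equal change. The cloud follows the line (Pearson correlation 0.89), Krt8 lies below it at 2.62 and 0.37, and the point of Serpinb2 above it at the upper right had no read on day 0 in Krt8-/- AECs.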

How the data were processed

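The deposited table holds whole-number read counts per gene from the authors, with 55426 entries for 24 libraries. The submitters' notes name cutadapt 2.3, STAR 2.7.8a, RSEM 1.3.3, and GRCm38. RSEM estimates counts, so the deposited counts may be rounded estimates, and which counter made them is not given in the sources used here. Strand use in counting is not given either. Symbols from GENCODE M21 matched 55154 identifiers and not 267. The 5 reporter entries held 0 counts and were left out.

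Genes were filtered with filterByExpr of edgeR 4.0.16 (minimum count 10, total 15), scaled by TMM, and tested by the quasi-likelihood test over all 24 libraries in 8 groups of genotype and day (16 residual degrees of freedom), with Benjamini-Hochberg adjustment and a threshold of 0.05. The test of the change in Krt8-/- AECs, and of its difference from the change in Krt8+/+ AECs, came from this fit. Standard errors were derived from this test, as the size of the fitted log2 change divided by the square root of the F statistic. They are approximate and have no use for genes with almost no reads (914 for the difference in AC124518.1). The pipeline was tested on simulated data with few changed genes, balanced in direction. Such data cannot test the scaling or the calls where 50.6% of genes pass the threshold, as here. DESeq2 1.42.0, other scaling, no filter, the replicate as a block, these libraries alone, and leaving out each replicate were the alternatives. P-values measure the spread between libraries, and intervals cover counting error only.

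Genes named were the 12 largest rises and 12 largest falls past the threshold (same direction in each replicate, at least 10 CPM on the higher day, no predicted-gene or Rik symbol), the 6 largest gains and losses in CPM, the extreme and most abundant members of each list and others by role, the 5 smallest p-values of the genotype difference, and keratins. Some genes that meet this rule are not reported here. The members and lists were chosen with earlier results of these data known. Genes with no read on 1 day are given as bounds, with 3 counts in the group as the floor, and ratios of 1 to 3 reads with exact 95% intervals.

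Pairing of the replicate numbers comes from the dates in the library titles, and each date is taken as a batch. Deviations from the group mean of day 0 and day 1 Krt8-/- libraries with the same number had correlations of 0.267, 0.063, and 0.278 over 18046 genes, and those with other numbers -0.281 to 0.083.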

Additional observations from a re-analysis of the deposited data

Results flagged for a closer look

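The change in Krt8 from day 0 to day 1 differed between genotypes in the test of the difference itself (log2 change in Krt8-/- minus that in Krt8+/+ AECs, -2.25, standard error 0.31, edgeR adjusted p = 0.00719). Krt8 rose in 3 of 3 Krt8+/+ replicates and was higher on day 1 in replicates 1 and 3 of the Krt8-/- AECs. It is the deleted gene.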

How the results depend on the processing

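The genes past the threshold between days in Krt8-/- AECs numbered 7841 to 9481 under the other tools, scalings, filter, and sample choices (9131 as reported) and 6720 to 7411 without each replicate in turn. The fit with a replicate block, which pairs the days within a genotype and not the genotypes, gave 9380. Without replicate 2 the lower genes fell from 4852 to 3225. For the genotype difference, 1 gene passed as reported, with DESeq2 size factors, without the filter on low counts, and with the replicate block. DESeq2's own test gave 4 (Krt8, Krt8-ps, Gm20431, and Ankrd1). The Krt8-/- and Krt8+/+ libraries of these days compared alone gave 0, with 287 at an unadjusted p under 0.05, and leaving out replicates gave 0 in each case, with 370 to 517. Of the 258 genes named, 1 to 3 lost their call under the other tools, scalings, filter, and sample choices, and 9 to 14 without each replicate in turn. Directions reversed only in genes that did not pass the threshold: Hopx (-0.059 to 0.292 without each replicate in turn), G6pdx (0.005 with these libraries alone, -0.14 to 0.087 without each replicate), Mcl1 (0.005 with these libraries alone, -0.252 to 0.144), and Errfi1 (-0.256 to 0.144). The replicate block put Chil3, Il1b, Ccl6, and Ccl9 past the threshold and took Ubtf below it, and it changed no other call of a named gene. The cause was not tested. With 3 libraries a group, the median standard error of the genotype difference was 0.43.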
